A study of Oryza sativa with 6 samples.

Results

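The genes described here are the MYB, WRKY, NAC, bHLH, bZIP and AP2/ERF genes among those that the authors listed as different between pine1-1a and wild-type rice. They were found by words in either of 2 description columns of the authors' deposited table, leaving out entries that also mention a zinc finger, a transposon or a kinase. The rule found 74 of the 1962 genes in that table, and all 74 are among the 27397 genes with normalized reads. Of these, 72 are regulators by description: 20 MYB, 9 WRKY, 9 NAC, 24 bHLH, 5 bZIP and 5 AP2/ERF genes. The family sizes depend on using both descriptions: with the RAP description alone there were 5 NAC, 1 bZIP and 2 AP2/ERF genes, and with the MSU description alone 14 bHLH genes. The other 2 were caught by letters inside another word and are no transcription factors by description. Os03g0212400 is similar to SNAP29, a SNARE protein of membrane fusion, and was higher in pine1 by 0.25 on the log2 scale. Os05g0269500 has the HAP2-GCS1 domain of a gamete fusion protein and was lower by 1.11. Both are left out of the family counts.

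RNA from the basal 1 cm of rice shoots (Oryza sativa, cultivar Nipponbare), a cut that takes in stem and shoot apex, was sequenced at 20 days after germination in 16 h days. The groups were the pine1 knockout (pine1-1a), in the Nipponbare background, and wild-type Nipponbare, with 3 samples of 8 pooled plants in each and no treatment. Only 1 knockout line is named. PINE1 encodes a zinc finger transcription factor, and the study's title credits it with keeping internodes short before flowering.

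Transcription factors bind short DNA sequences near genes and raise or lower their transcription. In plants a few domains define very large families. MYB proteins include many regulators of phenylpropanoid and secondary wall genes, and WRKY proteins bind the W box of many defence genes. NAC proteins take their name in part from genes that set organ boundaries, and members of the family also act in wall thickening and stress. The bHLH proteins, which pair with each other, act in light, brassinosteroid, cold and stomatal programs, the bZIP proteins in abscisic acid and stress responses, and the AP2/ERF proteins in stress, ethylene responses and meristem fate.

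Recovered reads ranged from 27918842 to 36250239 per library. No library was a copy of another: the chi-square per degree of freedom was 8.11 to 9.8 between pine1 pairs and 6.21 to 7.18 between wild type pairs. PINE1 itself (Os12g0617000) had 5199, 5044 and 4173 normalized reads in pine1 and 3569, 3674 and 2943 in wild type. Its RNA was higher in pine1 without overlap (log2 0.50, limma adjusted p = 0.0214) and so gives no check of the genotypes. Every direction below is that of the libraries labelled pine1. The tissue was checked with 5 KNOX loci of the shoot apex, which summed to 3599 to 4476 normalized reads in pine1 and 2036 to 2640 in wild type. Of the 5, 3 rose (limma adjusted p up to 0.0236), and these 3 are in the authors' table of this contrast. The other 2 did not pass, with fold changes below 0: Os05g0129700 (log2 -0.02, limma adjusted p = 0.95) and Os03g0771500 (log2 -0.59, limma adjusted p = 0.226). Of 3 root loci, 2 were in the table, and they summed to 109 to 312 in pine1 and 363 to 594 in wild type. One of these, Os01g0704100, rose (log2 1.52, limma adjusted p = 0.032), a call that ended with any 1 library left out (limma adjusted p 0.0527 to 0.118) and in DESeq2 (0.0738), while the fold change of the other was below 0. None of 6 clock loci passed in limma (2 had an unadjusted p under 0.05, edgeR called 0 and DESeq2 1). All 6 fold changes were above 0 (0.05 to 0.86 on the log2 scale, median 0.18). The largest was that of Os09g0532400 (limma adjusted p = 0.0624). Of the 6, 1 is in the authors' table of this contrast, GI (Os01g0182600, log2 0.45, limma adjusted p = 0.131). The part of cell makeup and of the hour of harvest in the differences below was not tested. In bulk samples, fewer cells of a type and less RNA per cell cannot be told apart.

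Because the authors' table was made from the same 6 libraries, the differences of the 72 regulators between genotypes chose them and are given as a description with no test. Values are normalized reads, that is reads divided by 1 size factor per library. Fold changes are differences of mean log2(normalized reads + 1), pine1 minus wild type. Of the 72 regulators, 41 were higher in pine1 and 31 lower. The 41 had a median log2 fold change of 0.64 and ranged from 0.22 to 2.82, and the 31 had a median of -0.56 and ranged from -2.69 to -0.24. A change of at least 2-fold was seen in 14 of those higher and 5 of those lower. The share that was higher, 56.9%, stands beside 59.7% of all genes of the authors' deposited table, which holds 7.16% of the genes with normalized reads.

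**Figure D1:**
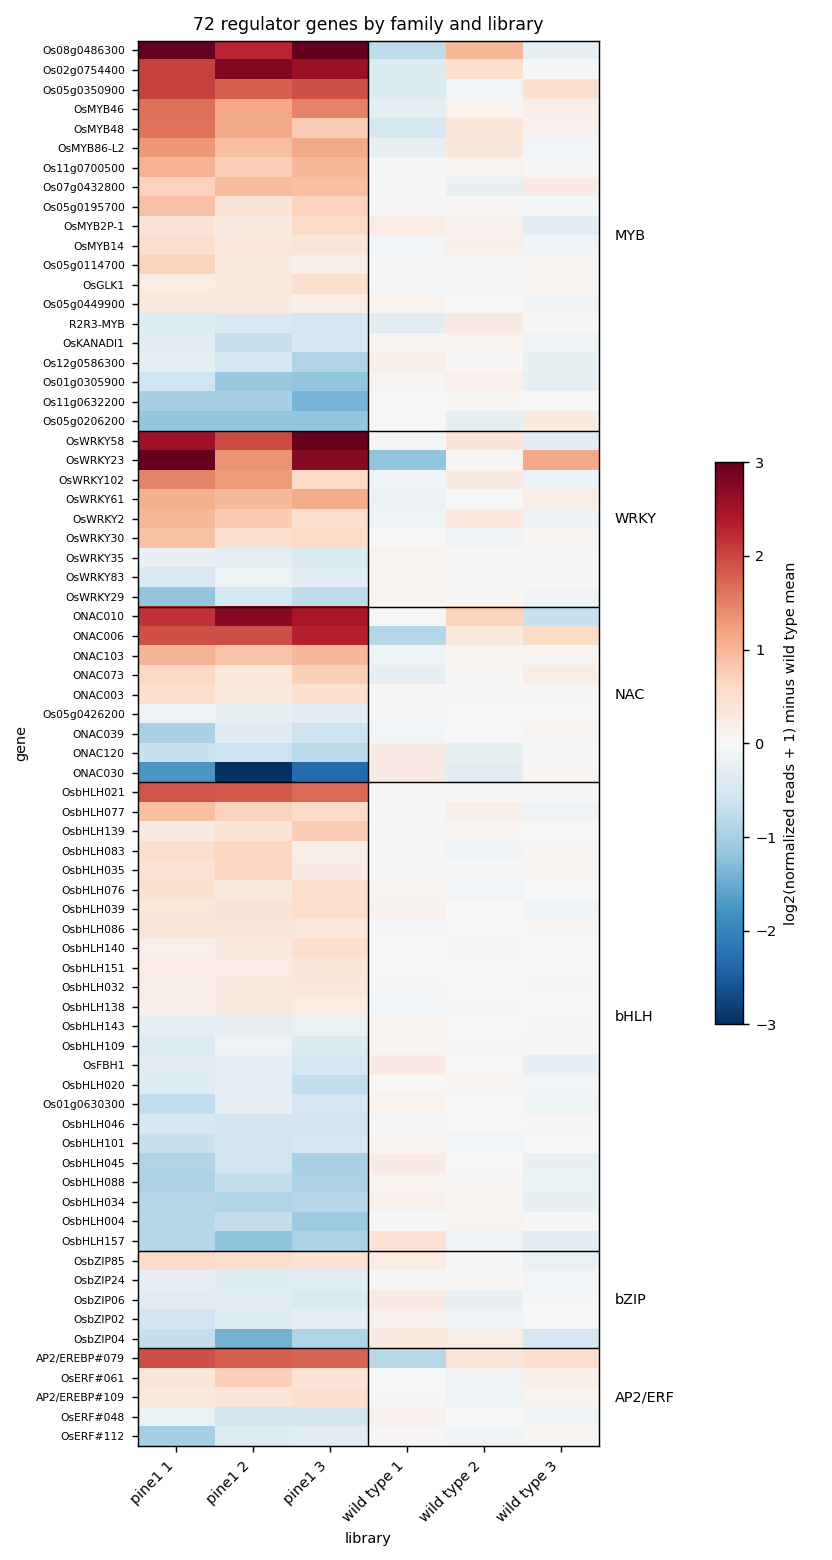
Each row is 1 of the 72 regulators, grouped by family and sorted by fold change; columns are the 3 pine1 and the 3 wild type libraries, and colour gives log2(normalized reads + 1) minus the wild type mean, with values beyond 3 drawn in the end colours. The 41 higher genes are red and the 31 lower genes blue in the pine1 columns, and libraries of a genotype differ visibly in rows with few reads, such as OsWRKY23 and ONAC030.

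In 71 of the 72 all libraries of 1 genotype stood above all of the other, 41 with pine1 above and 30 with pine1 below. Over the 24149 genes tested that share was 26.4%, 13.5% with pine1 above and 12.9% with pine1 below. OsFBH1 (Os08g0506700) was the exception, and it was chosen for mention for that reason. In the fit over all genes, in which limma called 6.46% of genes at an adjusted p under 0.05 (4.02% higher and 2.44% lower), 53 of the 72 were called, 32 higher and 21 lower. On the recovered reads edgeR called 54 of the 72 and DESeq2, the tool in the submitters' processing notes, called all 72. The rule chose the genes on this contrast, so nothing is read from these counts. At the edge of the rule, the highest adjusted p in the authors' deposited table among the regulators was 0.0494, for the bHLH gene Os01g0630300, with 162, 228 and 191 normalized reads in pine1 and 291, 276 and 250 in wild type. Genes outside that table carry no description. Among listed regulator loci outside it, the one nearest to the threshold by DESeq2 was the bZIP locus Os09g0540800, with 672, 752 and 633 in pine1 and 552, 531 and 586 in wild type.

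The division into higher and lower members is given here per family. Of the MYB genes 14 were higher and 6 lower, of the WRKY genes 6 and 3, of the NAC genes 5 and 4, and of the AP2/ERF genes 3 and 2. The bHLH genes divided evenly, 12 and 12, and of the bZIP genes 1 was higher and 4 were lower. Median log2 fold changes were 0.40 for MYB, 0.77 for WRKY, 0.43 for NAC, -0.01 for bHLH, -0.36 for bZIP and 0.38 for AP2/ERF. By at least 2-fold, 1 of the 24 bHLH genes was higher and 1 lower, 6 and 2 of the 20 MYB genes, 4 and 0 of the 9 WRKY genes and 2 and 1 of the 9 NAC genes. Whether these splits differ between families was not tested.

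**Figure D2:**
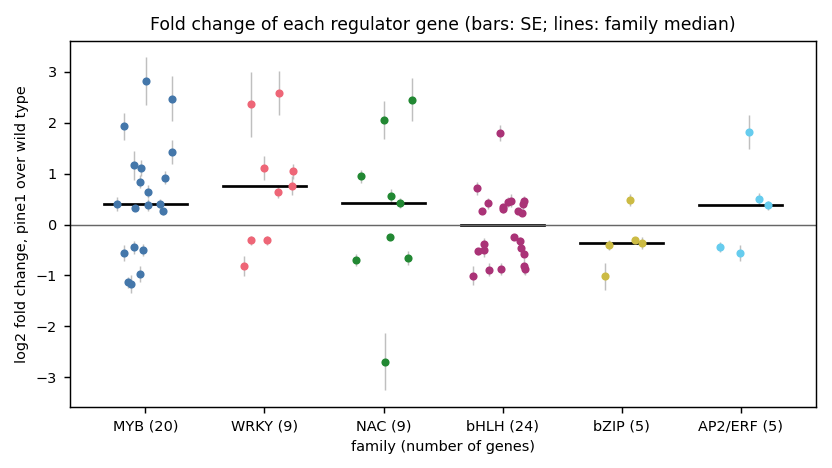
Each point is 1 regulator, placed by family on the horizontal axis and by log2 fold change (pine1 over wild type) on the vertical axis, with the standard error of the limma fit as a bar and the family median as a black line. The medians lie between -0.36 for bZIP and 0.77 for WRKY, and the widest spread, -2.69 to 2.45, is among the NAC genes.

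The largest MYB differences were in genes with few wild type reads. Os08g0486300, described as a P-type R2R3 MYB, had 58.9, 34.4 and 62.0 normalized reads in pine1 and 3.28, 13.5 and 5.13 in wild type (log2 2.82, SE 0.46). All 3 pine1 libraries stood above wild type, with replicate 2 nearest to it on both sides. Os02g0754400, annotated as MYB in 1 of its descriptions only, had 10.6, 18.2 and 15.8 in pine1 and 1.09, 2.88 and 1.71 in wild type. It was the only regulator with at most 3 reads in every library of a genotype, and its log2 fold change of 2.47 depends on the added 1. Os05g0350900, a MYB-like gene with no symbol, had 83.1, 69.7 and 76.7 in pine1 and 14.2, 18.3 and 27.4 in wild type (log2 1.93, SE 0.26).

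OsMYB46 (Os12g0515300), a relative of the Arabidopsis MYB46 that switches on secondary wall genes, had 69.6, 49.5 and 62.0 normalized reads in pine1 and 17.5, 23.1 and 24.8 in wild type. The lowest pine1 library was above the highest wild type library (log2 1.43, SE 0.24). OsMYB48 (Os01g0975300), described as acting in drought and salinity tolerance, averaged 128 ± 40.8 in pine1 and 56.4 ± 16.7 in wild type (SD, n = 3 each; log2 1.17). OsMYB86-L2 (Os05g0543600) had 656, 495 and 581 in pine1 and 222, 334 and 251 in wild type (log2 1.11, SE 0.16), again with no overlap. Os11g0700500, similar to the snapdragon MYB305 of flower phenylpropanoid genes, averaged 244 ± 28.5 in pine1 and 128 ± 7.75 in wild type (log2 0.92). Another P-type R2R3 gene, Os07g0432800, averaged 600 ± 54.3 in pine1 and 335 ± 54.8 in wild type (log2 0.85), so both genes of that description were higher. Os05g0195700, similar to MYBS2, a rice protein that binds the promoter of a sugar-regulated amylase gene, was higher by 0.64.

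The other 5 higher MYB genes moved by 0.26 to 0.40 on the log2 scale. They include OsGLK1 (Os06g0348800), an activator of chloroplast development, with 3909, 4145 and 4688 normalized reads in pine1 and 3269, 3276 and 3577 in wild type. OsMYB2P-1 (Os05g0140100), described as a regulator of phosphate-starvation responses and root architecture, had 1795, 1635 and 2027 in pine1 and 1588, 1504 and 1074 in wild type. Its pine1 replicate 2 stood just above wild type replicate 1. The remaining 3 are OsMYB14 (Os01g0702700), Os05g0114700 and Os05g0449900.

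Among the 6 lower MYB genes, Os11g0632200, with a Myb/SANT-like domain, had 710, 718 and 541 normalized reads in pine1 and 1426, 1452 and 1407 in wild type (log2 -1.13, SE 0.10). The wild type libraries lay close together and far above every pine1 library. The other description of Os11g0632200 is only an expressed protein, so its place among the MYB genes rests on that domain name alone. Os05g0206200, a MYB-like gene, averaged 56.3 ± 0.28 in pine1 and 129 ± 24.1 in wild type (log2 -1.16). Os01g0305900, an R2R3 gene, had 461, 314 and 308 in pine1 and 740, 773 and 588 in wild type (log2 -0.97, SE 0.16). Both genes with the SHAQKYF form of the MYB domain were lower: OsKANADI1 (Os02g0696900), whose Arabidopsis relatives set the lower side of leaves, by 0.50 and Os12g0586300 by 0.56 on the log2 scale. OsKANADI1 had 282, 222 and 255 in pine1 and 370, 383 and 323 in wild type. The R2R3 gene Os06g0637500 was lower by 0.44.

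The WRKY genes with the largest fold changes had few reads. OsWRKY58 (Os05g0528500) had 25.1, 16.2 and 41.7 normalized reads in pine1 and 3.28, 4.81 and 2.56 in wild type (log2 2.59, SE 0.43). OsWRKY23 (Os01g0734000) had 36.7, 11.1 and 30.5 in pine1 and 1.09, 3.84 and 9.40 in wild type (log2 2.36, SE 0.64). Its pine1 replicate 2 and wild type replicate 3 nearly met, and the fold change was 1.78 without wild type replicate 1.

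Better covered WRKY genes that were higher had fold changes of 0.65 to 1.11 on the log2 scale. OsWRKY102 (Os01g0182700), which in rice acts against lignin deposition, had 375, 322 and 199 normalized reads in pine1 and 125, 161 and 117 in wild type (log2 1.11, SE 0.23), and the pine1 libraries spread widely. OsWRKY61 (Os11g0685700) had 184, 171 and 187 in pine1 and 75.4, 85.5 and 101 in wild type (log2 1.05, SE 0.15), with tight groups. OsWRKY2 (Os10g0579400) averaged 192 ± 32.1 in pine1 and 113 ± 22.3 in wild type (log2 0.77). OsWRKY30 (Os08g0499300), tied to defence in rice, had 277, 215 and 226 in pine1 and 153, 141 and 161 in wild type (log2 0.65, SE 0.13). Of the 3 lower WRKY genes, OsWRKY29 (Os07g0111400) had 42.5, 67.7 and 57.5 in pine1 and 102, 101 and 90.6 in wild type (log2 -0.82, SE 0.20). OsWRKY35 (Os04g0471700) and OsWRKY83 (Os05g0583600) were each lower by 0.31; the other description of OsWRKY83 calls it similar to an ovate protein, so its family is uncertain.

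The NAC genes with the largest fold changes, in both directions, had few reads. ONAC030 (Os01g0339500) had 8.70, 1.01 and 5.64 normalized reads in pine1 and 38.2, 25 and 33.3 in wild type (log2 -2.69, SE 0.55). The groups lay far apart, but the fold change was -2.03 without pine1 replicate 2, which held 1 read. ONAC010 (Os07g0566500) had 18.4, 27.3 and 22.6 in pine1 and 3.28, 5.77 and 1.71 in wild type (log2 2.45, SE 0.43). ONAC006 (Os03g0624600) had 58.9, 58.6 and 76.7 in pine1 and 7.65, 18.3 and 22.2 in wild type (log2 2.06, SE 0.37), with every pine1 library far above every wild type library.

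Both NAC genes described as similar to CUC proteins, which in Arabidopsis mark the boundaries between organs and help to set up the shoot meristem, were lower in pine1. ONAC039 (Os03g0327100), similar to CUC1, had 272, 412 and 349 normalized reads in pine1 and 503, 536 and 562 in wild type (log2 -0.65, SE 0.14). ONAC120 (Os10g0477600), described as like NAM and CUC2, had 366, 375 and 334 in pine1 and 689, 501 and 569 in wild type (log2 -0.70, SE 0.12). In neither did the groups overlap, with the wider spread in pine1 for ONAC039 and in wild type for ONAC120. ONAC103 (Os07g0683200) was higher, with 166, 149 and 161 in pine1 and 76.5, 84.6 and 84.6 in wild type (log2 0.95, SE 0.14). ONAC073 (Os01g0672100) and ONAC003 (Os01g0191300) were higher by 0.55 and 0.43. Os05g0426200, lower by 0.24, is a NAC gene by 1 description and a Rossmann-fold protein by the other.

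**Figure D3:**
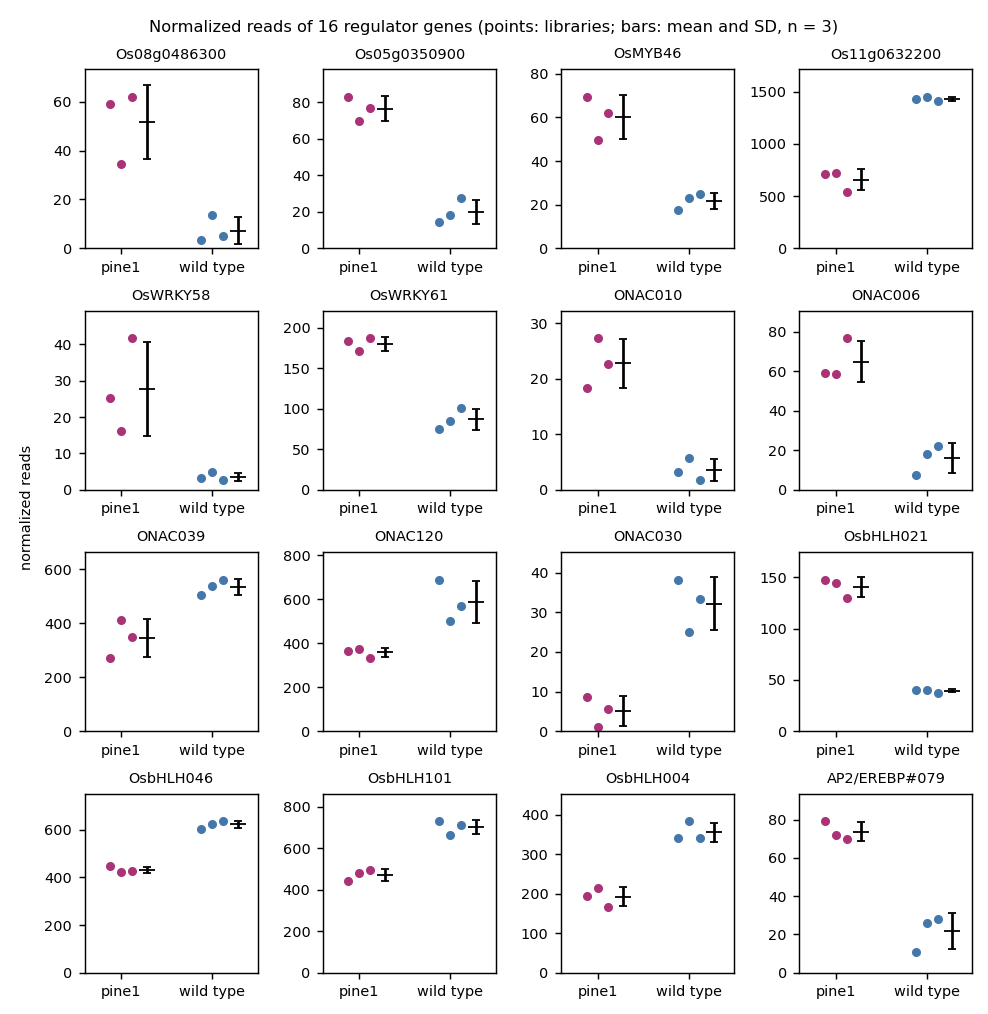
Each panel shows 1 of 16 regulators, with normalized reads on a vertical axis that starts at 0; points are libraries, pine1 on the left and wild type on the right, and black bars give the mean and SD (n = 3). In every panel the points of the genotypes are apart, for example 130 to 148 in pine1 and 37.6 to 40.4 in wild type for OsbHLH021.

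In the bHLH family 1 gene stood out. OsbHLH021 (Os12g0632600) had 148, 145 and 130 normalized reads in pine1 and 40.4, 40.4 and 37.6 in wild type (log2 1.81, SE 0.16), with the next highest fold change in the family at 0.72. That next gene was OsbHLH077 (Os07g0471900), with 408, 349 and 321 in pine1 and 211, 247 and 197 in wild type. It shares its second description, as related to an ethylene-responsive protein, with OsbHLH076 (Os02g0671300), which averaged 354 ± 32.8 in pine1 and 265 ± 17.8 in wild type (log2 0.42). The other 9 higher bHLH genes differed by 0.22 to 0.47; 5 of them, OsbHLH083 (Os05g0103000), OsbHLH035 (Os01g0159800), OsbHLH039 (Os09g0410700), OsbHLH086 (Os06g0275600) and OsbHLH151 (Os11g0158500), ranged from 0.27 to 0.46.

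The 9 also include 3 genes annotated with a conserved peptide upstream reading frame, a short coding stretch ahead of the main one that in plants can hold back its translation. OsbHLH139 (Os02g0315600) had 767, 840 and 1096 normalized reads in pine1 and 614, 664 and 650 in wild type (log2 0.47). OsbHLH140 (Os03g0591300) had 1102, 1211 and 1408 in pine1 and 1014, 972 and 1008 in wild type (log2 0.31). OsbHLH138 (Os03g0391700) had 4509, 4853 and 4648 in pine1 and 3796, 4168 and 4052 in wild type (log2 0.22). All 3 were higher in pine1 by less than 1.5-fold, and they were singled out after their values were seen. The authors' deposited table holds 6 genes with this annotation, of which 5 were higher in pine1, beside 59.7% of all genes of that table. With so few genes, nothing is read from this count. OsbHLH032 (Os09g0475400), described as BIM2, whose Arabidopsis relative partners a transcription factor of brassinosteroid responses, had 3045, 3230 and 3287 in pine1 and 2582, 2674 and 2700 in wild type (log2 0.26, SE 0.05).

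Several lower bHLH genes had fold changes of about the same size. OsbHLH004 (Os10g0544200), described as an inducer of CBF expression, a class that in Arabidopsis acts in cold responses and in stomatal development, had 195, 215 and 167 normalized reads in pine1 and 340, 383 and 341 in wild type (log2 -0.88, SE 0.12). OsbHLH034 (Os02g0726700) had 216, 209 and 219 in pine1 and 440, 416 and 336 in wild type (log2 -0.88, SE 0.12). OsbHLH045 (Os10g0376900) had 189, 238 and 178 in pine1 and 415, 351 and 300 in wild type (log2 -0.81, SE 0.15). In each of the 3 the highest pine1 library was well under the lowest wild type library. OsbHLH157 (Os02g0178700) was lower by 1.00 and OsbHLH088 (Os03g0231950) by 0.87 on the log2 scale; the second description of OsbHLH088 is an F-box protein.

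OsbHLH101 (Os04g0618600), similar to HFR1, which in Arabidopsis restrains growth under far-red light, had 441, 482 and 496 normalized reads in pine1 and 732, 664 and 710 in wild type (log2 -0.57, SE 0.08). OsbHLH046 (Os09g0468700) had 446, 422 and 425 in pine1 and 605, 626 and 637 in wild type (log2 -0.53, SE 0.07). In both genes the replicates lay close together and the genotypes apart. OsFBH1, whose Arabidopsis relatives switch on the flowering gene CONSTANS, had 2671, 2873 and 2372 in pine1 and 4062, 3398 and 2861 in wild type (log2 -0.37, SE 0.12). Its pine1 replicate 2 was above wild type replicate 3. The other 4 lower bHLH genes, OsbHLH143 (Os09g0487900), OsbHLH109 (Os01g0900800), OsbHLH020 (Os03g0671800) and Os01g0630300, were lower by 0.25 to 0.50.

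Of the bZIP genes, OsbZIP04 (Os01g0542700) had 59.9, 36.4 and 53.0 normalized reads in pine1 and 122, 116 and 69.2 in wild type (log2 -1.02, SE 0.27). Wild type replicate 3 lay nearer to pine1 than to its own group. OsbZIP02 (Os01g0211800) and OsbZIP06 (Os01g0756200) are both described as similar to VIP1, a protein that in Arabidopsis enters the nucleus under stress and binds an Agrobacterium protein. Both were lower. OsbZIP02 had 655, 759 and 804 in pine1 and 1069, 898 and 963 in wild type (log2 -0.40), and OsbZIP06 averaged 1027 ± 43.6 in pine1 and 1333 ± 237 in wild type (log2 -0.36). OsbZIP24 (Os02g0833600) was lower by 0.31. The 1 that was higher, OsbZIP85 (Os12g0194600), had 476, 448 and 435 in pine1 and 378, 313 and 282 in wild type (log2 0.49, SE 0.12).

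In the AP2/ERF family, AP2/EREBP#079 (Os01g0813300) had 79.2, 71.7 and 69.9 normalized reads in pine1 and 10.9, 25.9 and 28.2 in wild type (log2 1.82, SE 0.34). The lowest wild type library was replicate 1. AP2/EREBP#109 (Os08g0442400), similar to BABY BOOM, a promoter of embryo formation in other plants, had 898, 946 and 1023 in pine1 and 756, 663 and 793 in wild type (log2 0.38, SE 0.09). OsERF#061 (Os05g0361700) was higher by 0.49. OsERF#048 (Os08g0408500) had 1956, 1544 and 1519 in pine1 and 2462, 2246 and 2079 in wild type (log2 -0.44, SE 0.10). Os12g0603300, an AP2 domain gene, had 544, 844 and 846 in pine1 and 1107, 992 and 1140 in wild type (log2 -0.56, SE 0.16), with pine1 replicate 1 far under the others of its group.

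Large fold changes lay among the genes with few reads. Of 15 regulators with a mean under 100 normalized reads over the 6 libraries, 14 differed by at least 2-fold, and the smallest log2 change among the 15 was 0.82. Of 17 with a mean of at least 1000, 9 were higher and 8 lower, and the largest log2 change among them was 1.13, in Os11g0632200. A gene with few reads enters the authors' table only with a large change, so the rule itself bears on this pattern. Reads are not per length, so they are not compared between genes as levels of RNA.

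**Figure D4:**
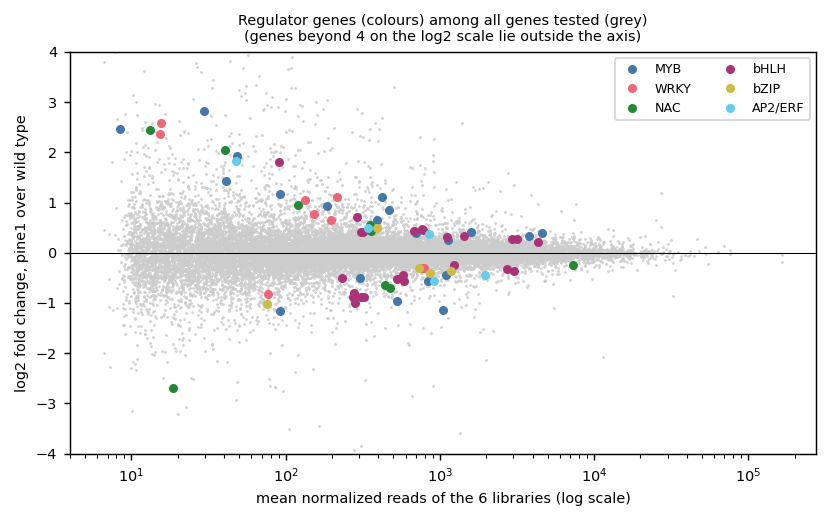
The horizontal axis gives the mean normalized reads of the 6 libraries on a log scale and the vertical axis the log2 fold change, pine1 over wild type; grey points are the genes tested and coloured points the 72 regulators by family. The 15 regulators with a mean under 100 lie at 0.82 or more from 0, and those with a mean of at least 1000 lie within 1.13 of 0.

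By locus identifier the 72 were spread over all 12 chromosomes, and no 2 members were within 10 rows of each other in the ordered table. Chromosome 5 held 12, or 6.16 per 1000 genes tested, of which 9 were higher, and chromosome 1 held 15, or 4.43 per 1000. Chromosome 4 held 2, or 0.955 per 1000, and the remaining chromosomes held 1.56 to 3.66 per 1000. How many genes of these families each chromosome carries was not counted, and whether the spread is uneven was not tested.

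The rule sees regulators only where the authors listed them, so loci listed from memory as known members of the 6 families were looked at over the whole table. Of 118 such loci, 115 had reads in the table and 105 were tested. By limma, 5 rose and 1 fell, 5.71% of the 105, beside 6.46% of all genes tested, and 99 did not pass. Their median log2 fold change was -0.01, and that of all genes tested was -3.6e-05. Of 17 MYB loci 1 rose, of 18 WRKY loci 1 rose, and of 21 bHLH loci 3 rose and 1 fell. None of 11 NAC, 18 bZIP or 20 AP2/ERF loci passed in limma. At an unadjusted limma p under 0.05 there were 8 MYB, 1 WRKY, 3 NAC, 8 bHLH, 2 bZIP and 2 AP2/ERF loci. The share of all genes at that unadjusted threshold is not given here, so nothing is read from these counts. In the NAC, bZIP and AP2/ERF families edgeR and DESeq2 called 0 loci. The share over the 6 families is near that of all genes.

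**Figure D5:**
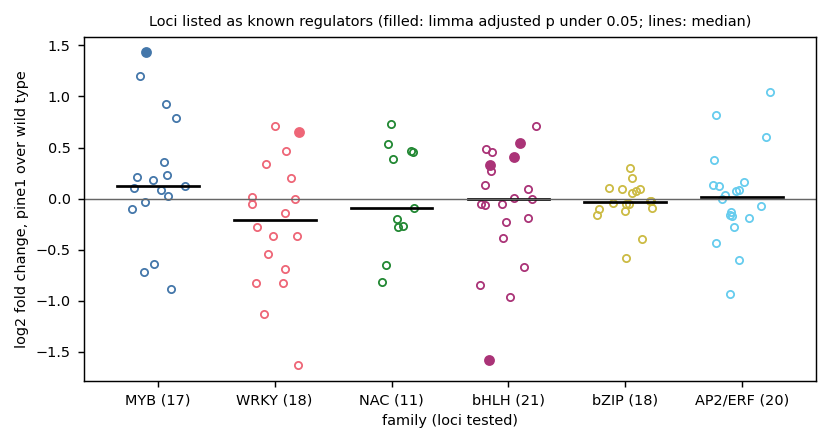
Each point is 1 of the 105 listed loci tested, by family on the horizontal axis and by log2 fold change (pine1 over wild type) on the vertical axis; filled points passed limma at an adjusted p under 0.05 and black lines are medians. The 6 filled points are 1 MYB, 1 WRKY and 4 bHLH loci, and the family medians lie between -0.21 for WRKY and 0.12 for MYB.

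The MYB and WRKY loci that passed are OsMYB46 and OsWRKY30, described above. The call of OsWRKY30 ended in 3 of 16 settings, without pine1 replicate 1 and without wild type replicates 1 and 2 in turn (limma adjusted p up to 0.0772). The 4 bHLH loci are in the authors' deposited table under descriptions that the rule does not catch. PIL13 (Os03g0782500), a phytochrome-interacting factor-like protein described as a regulator of reduced internode elongation under drought, had 531, 389 and 462 normalized reads in pine1 and 325, 331 and 285 in wild type. It rose by 0.55 on the log2 scale (limma adjusted p = 0.0346), in 3 of 3 pine1 libraries. Of 16 settings 5 ended the call, each leaving out 1 library, with the highest adjusted p, 0.111, without wild type replicate 3.

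ILI6 (Os03g0171300), a helix-loop-helix protein of the rice group named for increased leaf inclination, had 77.3, 118 and 107 normalized reads in pine1 and 292, 295 and 309 in wild type. It fell by 1.58 on the log2 scale (limma adjusted p = 7.7e-04), lay under wild type in 3 of 3 pine1 libraries, and passed in all 16 settings (limma, edgeR or DESeq2 adjusted p up to 0.00545). OsbHLH001 (Os01g0928000) and OsbHLH002 (Os11g0523700) are both similar to ICE1, the Arabidopsis inducer of CBF genes in the cold. OsbHLH001 had 1275, 1097 and 1235 in pine1 and 919, 875 and 926 in wild type and rose by 0.41 (limma adjusted p = 0.0113), passing in all 16 settings. OsbHLH002 had 3800, 3339 and 4053 in pine1 and 3148, 2943 and 2799 in wild type and rose by 0.33 (limma adjusted p = 0.0362), a call that 5 of the 16 settings ended, each leaving out 1 library (limma adjusted p up to 0.123). OsbHLH004, the one of the 72 described as an inducer of CBF expression, was lower, and whether it differs from these 2 genes was not tested.

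A search of the gene symbols added 2 more genes of the authors' table, named here after their values were seen. OsbZIP14 (Os02g0132500), similar to a common plant regulatory factor and also annotated with a conserved upstream reading frame, had 3053, 3417 and 3716 normalized reads in pine1 and 1885, 1968 and 1942 in wild type (log2 0.81). AP2/EREBP#096 (Os05g0549800), similar to RAV1, which joins an AP2 and a B3 domain, had 65.7, 88.9 and 64.3 in pine1 and 38.2, 42.3 and 22.2 in wild type (log2 1.10). In both, all pine1 libraries were above all wild type libraries.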

How the data were processed

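RNA-seq of 3 pine1 and 3 wild type samples was grouped by sample titles. The submitters' processing notes list FastQC, STAR, HTSeq, DESeq2 and build IRGSP-1.0, without versions. Strandedness is not stated there, so overlapping and antisense genes cannot be told apart. The authors deposited a signal per gene and library (by the values, counts divided by a size factor): 100% of them were whole multiples of 1 step within 0.001 reads, so reads were recovered. Every gene in this table has at least 10 reads over the 6 libraries, and 0 sample columns were left unused. The authors also deposited, per the file headers, log2 fold changes, their standard errors and p-values for 1962 genes, whose signs run wild type over pine1; 1961 are in both tables. Descriptions come from that table, and 0 of the 74 genes matched the RefSeq gene table by identifier. Protein and promoter sequences are not used here.

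Here, log2(normalized reads + 1) was fitted with limma 3.58.1 (R 4.3.3; empirical Bayes, intensity trend) on 24149 genes kept by edgeR's filterByExpr (edgeR 4.0.16, minimum count 10), with Benjamini-Hochberg adjustment and a threshold of 0.05, after a test on simulated data. Alternatives used DESeq2 1.42.0, edgeR, other scalings, filters and pseudocounts, a replicate block and 1 library left out. Each sample is a pool of plants and nothing says that pools were sown apart, so a p-value reflects only the spread of these samples, which may be technical. The members and lists were chosen with earlier results of these data known. Named genes were, per family, up to 6 with the largest rise and 6 with the largest fall at a mean of at least 20 normalized reads in the higher genotype, the 2 with most reads, those with at most 3 reads in every library of 1 genotype, members with neighbouring locus numbers and members with a symbol. Members outside this rule (such as Os07g0432800, Os05g0195700 and Os05g0449900) are named only to account for all members. The listed loci were written from memory and not checked against an annotation. Near-identical family members can share reads.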

Additional observations from a re-analysis of the deposited data

How the results depend on the processing

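Every one of the 72 regulators kept its direction in each of the 15 alternatives that tested it. The 72 were chosen on this contrast, and in 71 of them the genotypes did not overlap. Leaving out a library, a filter or a block could not reverse those 71, so kept directions are no support for them. Of 1094 fold changes of the 74 genes over these alternatives, 1089 moved by less than the replicate spread, 5 by more, and no sign reversed. The filters and the replicate block cannot change a fold change, and leaving out 1 library shifts it only by part of its group's spread. Most of these outcomes were therefore set in advance, and nothing is read from the count. The 5 are those of Os02g0754400, ONAC010, OsWRKY58 and OsbHLH021 with 5 in place of 1 added to the reads and that of Os02g0754400 in DESeq2. Leaving out 1 library gave 570 (without wild type replicate 1) to 760 genes higher in pine1 and 266 (also without wild type replicate 1; replicates 2 and 3 of wild type gave 272 and 388) to 550 lower, 28 to 43 of the 72 regulators called, and 2 to 7 listed loci higher and 1 to 3 lower. The regulator calls were 28, 32 and 35 when wild type replicates 1, 2 and 3 were dropped in turn and 34 when pine1 replicate 3 was. These fits have fewer samples. A filter of 5 CPM kept 30 higher and 27 lower regulators, of which 5 differed by at least 2-fold, against 19 without it, because genes with few reads are left out. On recovered reads edgeR called 979 genes higher and 589 lower, and DESeq2 1177 and 799. Each gene's genotype mean was subtracted from its log2 values, and the remainders were correlated between pine1 and wild type libraries. The remainders of same-numbered libraries correlated at 0.055, 0.022 and 0.134, and those of pairs with different numbers at -0.241 to 0.161. A replicate block gave 1195 genes higher and 799 lower, against 970 and 589 without it. With the block 64 of the 72 regulators were called, against 53, and 5 listed loci were higher and 1 lower. Whether same-numbered libraries share a batch cannot be told from these values. The RAP description alone found 50 regulators and the MSU description alone 61, against 72 with both. Genes with few reads limit the precision of the largest fold changes.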
